A study of Mus musculus with 4 samples.

Results

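The NR4A nuclear receptors Nr4a1, Nr4a2 and Nr4a3 were described here through the accessibility of their chromatin in T cells of a mouse colorectal tumor and of the adjacent cecum. They were taken by name, 3 of the 21883 protein-coding genes counted. The tumor, called AKP, grows from genetically engineered mouse intestinal organoids, which are injected under the outer lining of the cecum. T cells were sorted 4 weeks after transplantation from the tumor and from adjacent tumor-free cecum, and their nuclei went through a multiome assay that reads nuclear RNA and open chromatin (ATAC) together. The strain, sex and age of the host mice, and how many were pooled, are not given in the sources used here. Each tissue gave 1 ATAC library, so tissue and library cannot be told apart, and no test was run. The intervals given are exact, at the 95% level, and reflect counting error alone. The cell type of each nucleus is the label its authors assigned from the RNA.

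NR4A proteins are orphan nuclear receptors that bind DNA without a known natural ligand. Antigen receptor signalling induces them within hours as immediate-early genes, and in regulatory T (Treg) cells they help to maintain Foxp3, the factor that defines this lineage. In chronically stimulated CD8 T cells they are known for a part in the dysfunctional state. Nr4a1 (Nur77) is the member most used as a reporter of recent T cell receptor (TCR) signalling, while Nr4a2 (Nurr1) and Nr4a3 (Nor1) are its close relatives.

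The cecum library held 66466111 fragments and the tumor library 96747563, of which 66.2% and 64.3% belonged to the 7155 and 8466 labelled cells, with medians of 4374 and 5846 fragments per cell. There were 17 labels, of which 16 had at least 50 cells in both libraries. PD1+ CD4 cells numbered 14 in cecum and were left out of counts over labels. The libraries shared 84 labelled barcodes. Foxp3 accessibility set both Treg labels apart. It was 97.3 and 102 fragments per 1000000 fragments of the same cells (FPM) in the cecum, against 45.3 or less in the other labels. In the tumor it was 76.0 and 79.2 FPM against 46.4 or less. Il2ra, Ikzf2 and Ctla4, the other genes of the Treg list, did not set both labels apart in either library. In the cecum Il2ra had 165 FPM in IL-10+ Treg and 189 in IL-10- Treg, against 226 in Rorgt gdT cells. Ikzf2 had 205 and 474 FPM, against 407 in Innate-like T#1 cells. Ctla4 had 160 and 110 FPM, against 130 in Tfh-like cells. No marker of a T cell, B cell, myeloid or epithelial list was at 0, and over all labels the summed levels in cecum and tumor were 709.9 and 668 FPM for 6 T cell genes, 165 and 169 for 6 B cell genes, 81.0 and 86.3 for 6 myeloid genes and 160 and 172 for 10 epithelial genes. Their part in the results was not tested.

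Nr4a1 lies on chromosome 15 (chr15:101253902-101274795, GRCm38, the mm10 build), Nr4a2 on chromosome 2 (chr2:57106830-57124003) and Nr4a3 on chromosome 4 (chr4:48045078-48086447). The 250 bases before each annotated start, from RefSeq on GRCm38.p6 and in the direction of the gene, are shown because the promoter tiles carry part of the differences described below. Capitals mark TGACG or its reverse complement CGTCA, the core of the cAMP response element (CRE) that CREB family factors bind in many immediate-early genes.
Nr4a1, chr15:101266596-101266845, plus strand: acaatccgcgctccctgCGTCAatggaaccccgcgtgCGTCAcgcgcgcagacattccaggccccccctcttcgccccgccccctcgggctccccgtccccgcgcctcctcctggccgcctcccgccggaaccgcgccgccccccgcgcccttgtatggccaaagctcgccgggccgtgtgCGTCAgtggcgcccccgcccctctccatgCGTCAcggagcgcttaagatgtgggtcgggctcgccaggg
Nr4a2, chr2:57124004-57124253, minus strand: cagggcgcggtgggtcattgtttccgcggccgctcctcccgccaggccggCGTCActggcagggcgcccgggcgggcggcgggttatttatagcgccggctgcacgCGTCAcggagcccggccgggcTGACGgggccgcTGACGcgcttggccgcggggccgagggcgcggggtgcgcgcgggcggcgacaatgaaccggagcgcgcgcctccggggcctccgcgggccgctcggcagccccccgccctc
Nr4a3, chr4:48045055-48045304, plus strand: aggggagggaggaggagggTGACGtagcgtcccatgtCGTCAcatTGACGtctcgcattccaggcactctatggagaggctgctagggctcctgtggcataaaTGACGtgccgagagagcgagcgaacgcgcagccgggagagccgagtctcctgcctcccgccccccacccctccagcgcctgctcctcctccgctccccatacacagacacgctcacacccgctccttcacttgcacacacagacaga

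All 3 members had 4 matches to TGACG on either strand in these 250 bases. Among 32851 annotated promoters of the same length, 17.8% had at least 1 match and 0.137% had 4 or more. In Nr4a3 the matches all lay between 231 and 143 bases before the start, in Nr4a2 between 200 and 107, and in Nr4a1 they formed a distal and a proximal pair, the proximal pair between 69 and 36 bases before the start. None of the 3 promoters held AAAGGTCA, the element that an NR4A monomer binds (in 1.34% of promoters), or TGANTCA, an AP-1 site (in 6.75%). GGGCGG, a GC box, had 3, 4 and 1 matches in Nr4a1, Nr4a2 and Nr4a3, and 32.7% of promoters had at least 1. Each motif was searched on both strands, and no GC box shared letters with a CRE core, while the GC boxes at 181 and 177 bases before the Nr4a2 start overlapped each other. The members were rich in G and C, at 74.4%, 80.0% and 63.6% against a median of 52.4% over all promoters. The motif shares above are over all promoters and were not matched for G and C content. A match is a description of letters and not of a bound factor.

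Accessibility was counted as fragments with an end in the gene span plus 5 kb on each side. Nr4a2 separated the T cell types far more than its relatives did. Its level ranged over the 16 labels from 26.4 to 180 FPM in the cecum, a 6.81-fold range, and from 27.9 to 179 FPM in the tumor, a 6.44-fold range. Nr4a1 ranged from 148 to 269 FPM in cecum and from 150 to 234 FPM in the tumor, folds of 1.82 and 1.56. Nr4a3 ranged from 236 to 438 FPM and from 230 to 415 FPM, folds of 1.85 and 1.81. These ranges are of each gene against itself, since windows of different length do not allow levels of different genes to be compared.

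**Figure D1:**
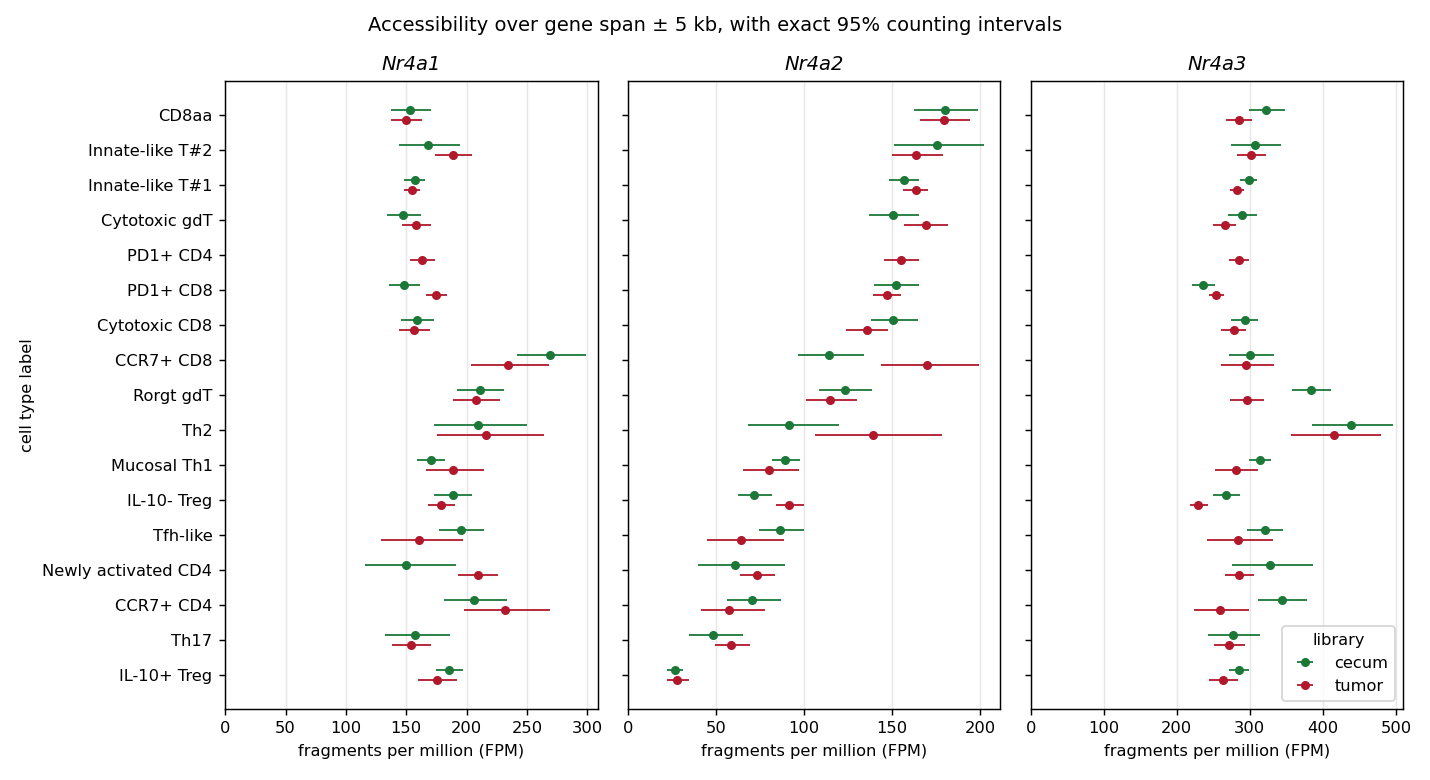
Accessibility of Nr4a1, Nr4a2 and Nr4a3 (x axis, FPM over the gene span plus 5 kb on each side) in each cell type label (y axis, ordered by the mean Nr4a2 level) in the cecum library (green) and the tumor library (red), with bars for exact 95% counting intervals. Nr4a2 runs from 26.4 FPM in IL-10+ Treg to 180 FPM in CD8aa cells of the cecum, while the other members vary less than 2-fold.

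Nr4a2 was most open in unconventional and CD8 labels. CD8aa cells, unconventional T cells with a CD8 alpha homodimer, led with 180 FPM in cecum and 179 in the tumor. Innate-like T#2 cells had 175 and 164 FPM, Innate-like T#1 cells 157 and 163, and Cytotoxic gdT cells 151 and 169. PD1+ CD8 cells had 152 and 147 FPM, Cytotoxic CD8 cells 151 and 136, CCR7+ CD8 cells 114 and 170.0 and Rorgt gdT cells 123 and 115. The order of these labels was not settled by the counts: the neighbouring pairs from CD8aa down to Cytotoxic gdT differed by less than counting error in both libraries. In PD1+ CD4 cells of the tumor, with 616 cells, Nr4a2 stood at 155 FPM.

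Most conventional CD4 labels were lower for Nr4a2, although Th2 cells, with 91.4 and 139 FPM, stood in the tumor above Cytotoxic CD8 and Rorgt gdT cells. Mucosal Th1 cells had 89.5 and 80.3 FPM in cecum and tumor, Tfh-like cells 86.3 and 64.2, CCR7+ CD4 cells 70.4 and 57.5, and Newly activated CD4 cells 60.9 and 73.1. Th17 cells had 48.2 and 58.6 FPM, the lowest of the labels outside the Treg cells in the cecum, while CCR7+ CD4 cells were the lowest of these in the tumor. IL-10+ Treg cells were the lowest of all labels in both libraries, and their intervals did not overlap those of Th17 cells in either. Of the 15 neighbouring pairs in the order of Nr4a2, 8 differed by less than counting error in both libraries, against 11 for Nr4a1 and 12 for Nr4a3.

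Nr4a1 followed another order. CCR7+ CD8 cells, which carry a homing receptor of naive and central memory cells, led with 269 FPM in cecum and 234 in the tumor. CCR7+ CD4 cells had 206 and 232 FPM, Th2 cells 209 and 216, and Rorgt gdT cells 211 and 207. CD8aa cells, which led for Nr4a2, were lowest for Nr4a1 in the tumor at 149.99 FPM. Both Treg labels sat in the middle, at 186 and 175 FPM for IL-10+ Treg and 189 and 179 FPM for IL-10- Treg.

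Nr4a3 was most open in Th2 cells, at 438 FPM in cecum and 415 in the tumor, although these rest on only 90 and 58 cells. Rorgt gdT cells followed in the cecum with 383 FPM and had 296 FPM in the tumor. The low end was held by PD1+ CD8 cells in the cecum (236.2 FPM) and by IL-10- Treg cells in the tumor (230 FPM). On the scale of log2(FPM + 1), the 16 labels in cecum and tumor had a Pearson r of 0.93 for Nr4a2, 0.78 for Nr4a3 and 0.70 for Nr4a1. Between members, on the same scale and over 33 label and library sums of at least 50 cells, r was -0.15 for Nr4a1 and Nr4a2, 0.34 for Nr4a1 and Nr4a3 and 0.11 for Nr4a2 and Nr4a3. Points of 1 library share its depth and processing, and no p-value is given for them.

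Among 12111 genes with a mean of at least 20 FPM, those whose pattern over the 33 sums was most like Nr4a2 were Lrrk1 (r = 0.83), Cd7, a T and NK cell surface protein (0.83), and Irx5 (0.82). The genes most like Nr4a1 were Cacnb1 (0.81), Lipg (0.79) and Mxd1, a partner of Max that opposes Myc (0.76). Those most like Nr4a3, out of 12112, were Ttll4 (0.80), Csk, the kinase that restrains Lck (0.72), and Bbip1 (0.69). The likeness was measured on log2(FPM + 1).

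The Treg subsets differed at Nr4a2 and not detectably at Nr4a1. The cecum held 151 Nr4a2 fragments from 996 IL-10+ Treg cells and 215 from 424 IL-10- Treg cells, levels of 26.4 FPM (22.4 to 31.0) and 71.6 FPM (62.4 to 81.9). In the tumor 387 IL-10+ Treg cells gave 76 fragments and 737 IL-10- Treg cells gave 532, levels of 27.9 FPM (22.0 to 34.9) and 91.6 FPM (84.0 to 99.8). The IL-10+ Treg level was the lower in both libraries and the intervals of the subsets did not overlap. On the log2 scale IL-10+ Treg stood at -1.44 (-1.75 to -1.13) relative to IL-10- Treg for cecum and at -1.72 (-2.08 to -1.37) for tumor.

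Nr4a2 was the 1 of the 3 members that lay past 1.5-fold between the subsets, where 8.32% of 14549 genes in cecum and 8.92% of 14791 genes in the tumor were lower in IL-10+ Treg by that much. Of all the 14549 and 14791 genes, 1.18% and 0.717% had a lower ratio than Nr4a2. Cells with more than 3 times the median number of fragments bore on the cecum value. Without them IL-10+ Treg stood at 18.8 FPM and IL-10- Treg at 74.2, a log2 ratio of -1.98. In the tumor the levels without such cells were 24.8 and 88.7 FPM. Whether these cells were doublets was not tested.

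Between the subsets Nr4a1 gave a log2 ratio of -0.02 (-0.17 to 0.13) for cecum and of -0.03 (-0.19 to 0.13) for tumor. Nr4a3 had 285 FPM in IL-10+ Treg and 268 FPM in IL-10- Treg of the cecum, a log2 ratio of 0.09 (-0.03 to 0.21). In the tumor the Nr4a3 levels were 264 and 230 FPM, a log2 ratio of 0.20 (0.07 to 0.33), so that it lay opposite in direction to Nr4a2 in the same cells. Nr4a3 was not past 1.5-fold, as 2.53% of genes in cecum and 2.06% in the tumor were on the higher side. Of all genes tested, 63.8% in cecum and 81.8% in the tumor had a lower ratio than Nr4a3.

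The locus was also counted in tiles of 500 bp. They are named by the distance of their centre from the annotated start, negative upstream. Of 236 tiles in the Nr4a2 locus, 9 held at least 20 fragments over both subsets in each library. The share of tile fragments inside the gene span was 83.0% in cecum and 84.1% in the tumor for IL-10+ Treg and 82.3% and 84.6% for IL-10- Treg. The 3 most open tiles are given here. At 7.25 kb (chr2:57116501-57117000), inside the gene span, IL-10+ Treg had 6.0 FPM in cecum and 4.4 in the tumor, and IL-10- Treg 12.7 and 16.5. At 8.75 kb (chr2:57115001-57115500) the levels were 4.9 and 5.9 FPM in IL-10+ Treg against 16.7 and 17.4 in IL-10- Treg. At 9.25 kb (chr2:57114501-57115000) they were 3.9 and 3.3 FPM against 14.0 and 19.1. These tiles also had the highest mean level of the locus over all labels, 22.5, 22.3 and 20.2 FPM, and CD8aa cells reached 38.5 and 42.8 FPM at 8.75 kb. The table of genes used gives spans without exons, so exon or intron is not stated.

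**Figure D2:**
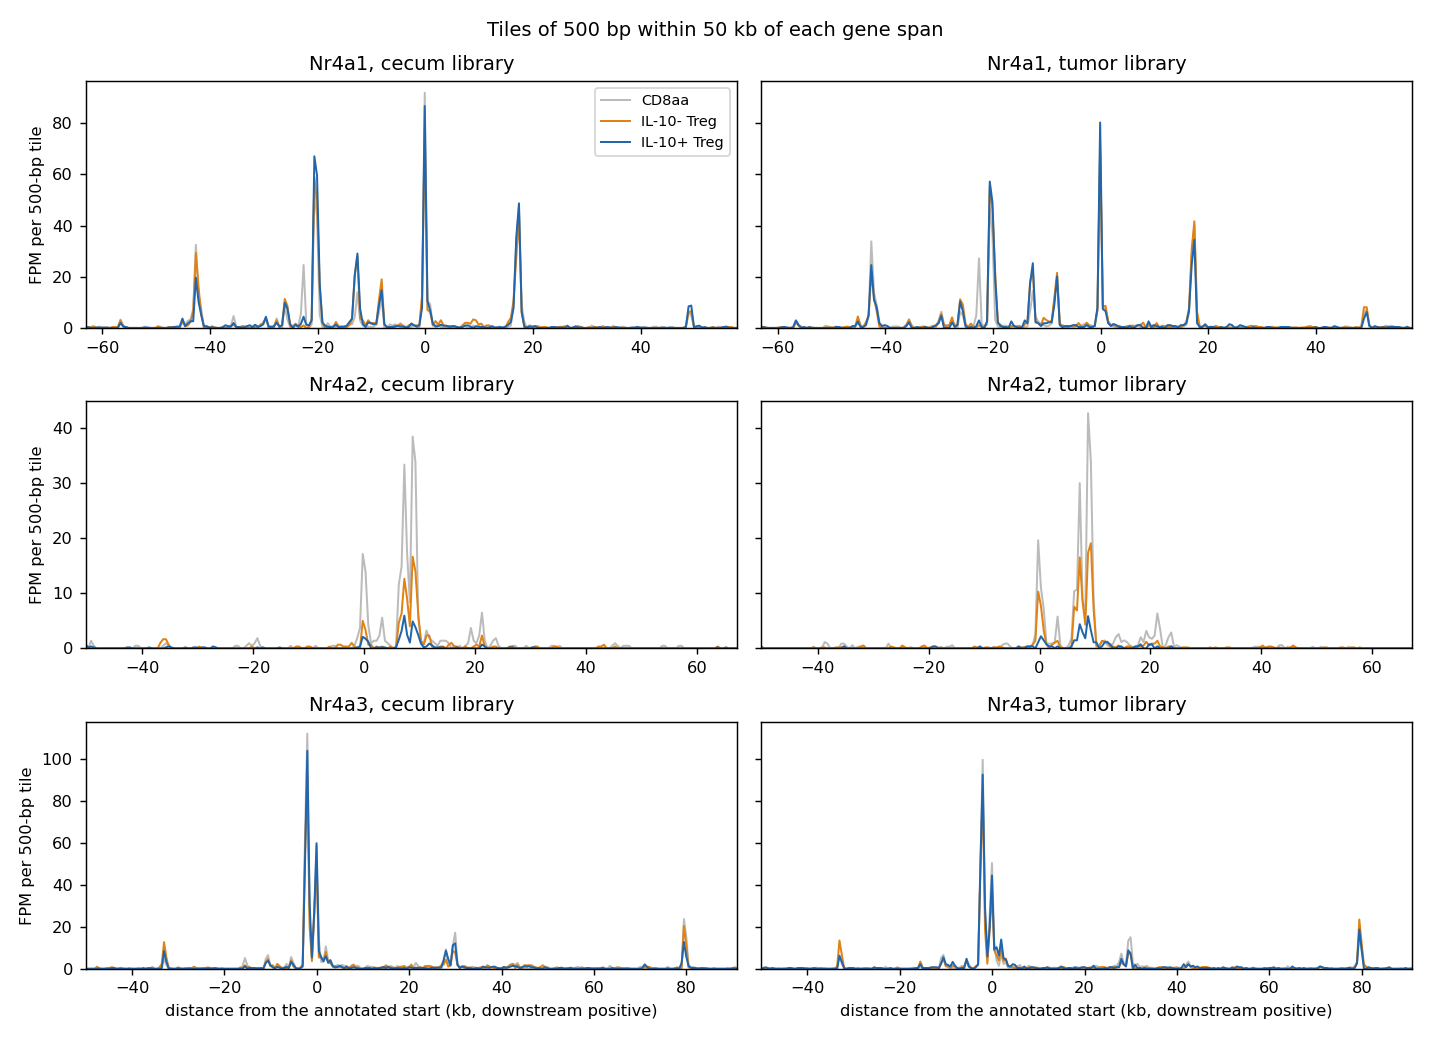
Level of each 500-bp tile (y axis, FPM) against distance from the annotated start (x axis, kb, downstream positive) for Nr4a1, Nr4a2 and Nr4a3 in the cecum library (left) and the tumor library (right), as lines for IL-10+ Treg (blue), IL-10- Treg (orange) and CD8aa cells (grey). At Nr4a2 the start and the tiles near 8.75 kb are lowest in IL-10+ Treg.

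At the start of Nr4a2 the IL-10- Treg level was higher in tumor than in cecum, and no difference was detectable in IL-10+ Treg. Within 1 kb of the annotated start, a window chosen after the data had been seen, IL-10- Treg had 20 fragments in cecum and 98 in the tumor, levels of 6.66 and 16.9 FPM. The 98 fragments came from 84 cells, with at most 3 from 1 cell. The log2 ratio of tumor over cecum was 1.34 (0.64 to 2.11), where 2.9% of 10875 annotated starts with at least 50 fragments were higher by 1.5-fold or more. It was 1.04 without cells of high fragment count, 0.97 with fragments under 150 bp alone and 1.49 as a mean over cells. IL-10+ Treg had 22 fragments in cecum and 11 in the tumor, levels of 3.85 and 4.03 FPM and a log2 ratio of 0.066 (-1.13 to 1.17). The intervals of both ratios overlap, and the difference between them was not tested. Between the subsets the start window gave -0.79 (-1.73 to 0.16) in cecum and -2.07 (-3.11 to -1.16) in the tumor, where 4.91% of starts were lower in IL-10+ Treg by 1.5-fold or more. The cecum value rests on 22 and 20 fragments, fewer than the minimum of 50, and has no such share. The window overlaps LOC105244150, an annotated gene across the Nr4a2 start, so the fragments cannot be assigned to 1 of them.

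Over the whole window, Nr4a2 in IL-10- Treg had a log2 ratio of tumor over cecum of 0.36 (0.12 to 0.59), a smaller difference than at the start, and the mean over cells, at 78.5 FPM in cecum and 80.8 in the tumor, gave 0.04. In IL-10+ Treg it was 0.08 (-0.34 to 0.48). The tile across the start, at -0.247 kb (chr2:57124001-57124500), had 5.0 FPM in cecum and 10.3 FPM in tumor IL-10- Treg, and 2.1 and 1.1 FPM in IL-10+ Treg. The share of tile fragments of the locus that lay within 1 kb of the start was 7.8% in cecum and 16.04% in the tumor for IL-10- Treg, against 12.9% and 11.5% for IL-10+ Treg.

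Over the whole window Nr4a2 was higher in the tumor in 8 of 16 labels and lower in 8, with a median log2 ratio of 0.03. The interval lay above 0 in 3 labels, IL-10- Treg, CCR7+ CD8 and Th2, and below 0 in none. Within 1 kb of the start Nr4a2 was higher in 11 of 16, a count given without a share over all starts. Some of the 11 rest on few fragments, such as 15 in cecum and 5 in the tumor for Tfh-like cells and 3 and 17 for Th17 cells. CCR7+ CD8 cells had 114 FPM in the cecum (145 fragments) and 170.0 FPM in the tumor (151 fragments), a log2 ratio of 0.57 (0.24 to 0.91), and their start window held 18 and 32 fragments, 14.2 and 36.0 FPM, where 3.82% of starts were higher by 1.5-fold or more. Th2 cells had 91.4 FPM (52 fragments) and 139 FPM (61 fragments), a log2 ratio of 0.60 (0.05 to 1.17). This was the 1 value past 1.5-fold among the 3 members and 16 labels, and 4.66% of 8192 genes were higher in the tumor by that much in Th2 cells. In Th2 cells the start window had the opposite direction, with 11 and 7 fragments. In Mucosal Th1 cells the start window had 7.39 and 13.1 FPM, from 39 and 17 fragments, a log2 ratio of 0.83 (-0.09 to 1.68) where 2.28% of starts were higher by 1.5-fold or more, against -0.16 (-0.48 to 0.15) over the whole window. The other labels, at -0.43 to 0.28, were within counting error. Over all labels pooled the ratio was 0.23 (0.18 to 0.28), a value that also depends on how many cells of each label a library held.

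**Figure D3:**
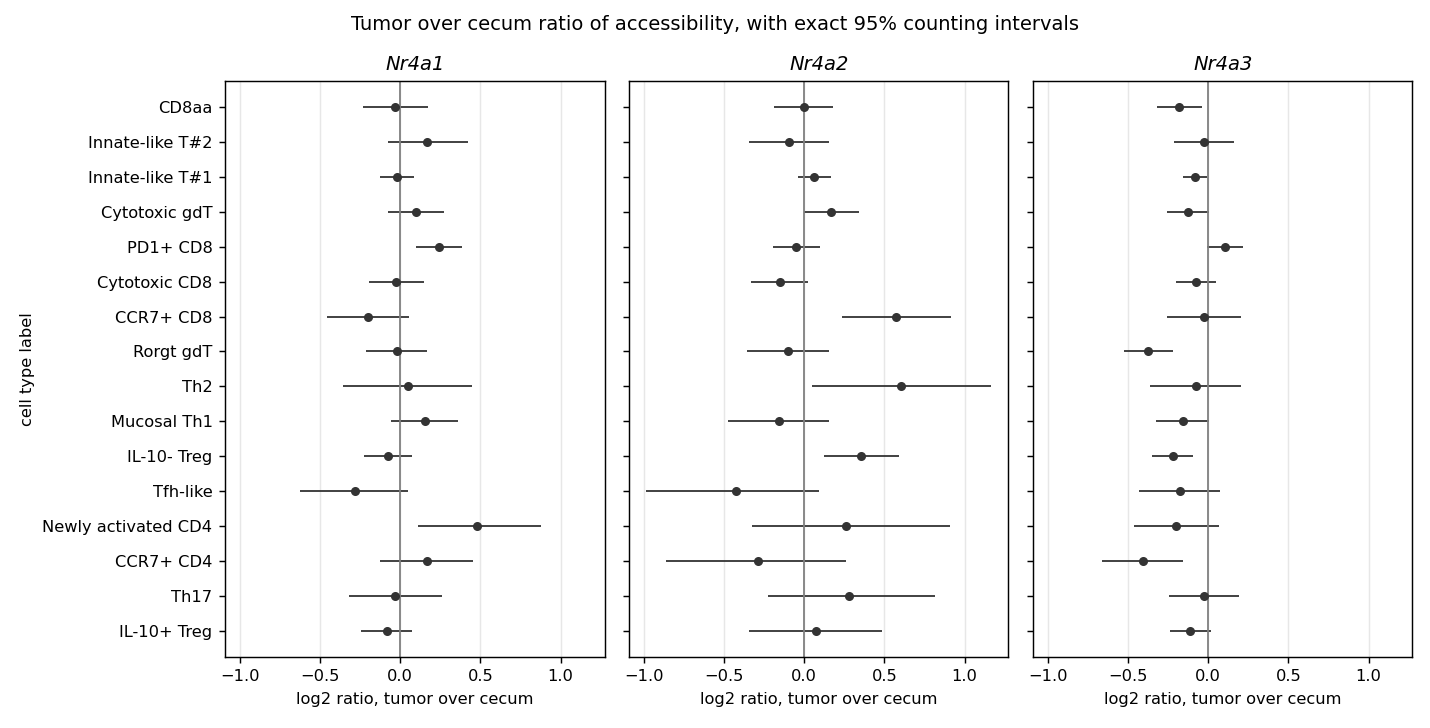
Log2 ratio of tumor over cecum accessibility (x axis) for Nr4a1, Nr4a2 and Nr4a3 in the 16 labels with at least 50 cells in both libraries (y axis), with bars for exact 95% counting intervals and a line at 0. Nr4a3 lies below 0 in 15 of 16 labels, while Nr4a1 and Nr4a2 lie on both sides.

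Nr4a3 was lower in the tumor library in 15 of 16 labels. Of 12105 genes with a mean of at least 20 FPM, 0.397% were lower in at least 15 of the 16. The 12105 genes were not matched in level to Nr4a3, which ranged from 230 to 438 FPM. The share among genes of like level is not given and may differ. The number of labels with higher Nr4a3 in the tumor rose from 1 to 2 at the start, with 50 kb each side or when scaled by fragments near gene ends, and to 3 at the gene ends. In the main window 1.91% of genes were higher in 2 labels or fewer and 5.49% in 3 or fewer. The shares under the other windows and that scaling are not given here and may differ. The differences were small, with a median log2 ratio of -0.12, and none was past 1.5-fold in the whole window. The interval lay below 0 in 5 labels. CCR7+ CD4 cells had 344 FPM in cecum and 259 in the tumor, a log2 ratio of -0.41 (-0.66 to -0.16). Rorgt gdT cells gave -0.37 (-0.53 to -0.22), IL-10- Treg cells -0.22 (-0.35 to -0.09), CD8aa cells -0.18 (-0.32 to -0.04) and Innate-like T#1 cells -0.08 (-0.16 to -0.01). PD1+ CD8 cells were the exception, with 236.2 FPM in cecum and 254 in the tumor, a log2 ratio of 0.10 (-0.01 to 0.22). All 16 labels share the same pair of libraries, so their directions are not independent of each other.

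Nr4a1 was higher in the tumor in 7 of 16 labels and lower in 9, but higher in 11 when scaled by fragments near gene ends. Newly activated CD4 cells had 149.9 FPM in the cecum, from 64 fragments, and 209 FPM in the tumor, from 627, a log2 ratio of 0.48 (0.11 to 0.87). PD1+ CD8 cells had 148 and 175 FPM, a log2 ratio of 0.24 (0.10 to 0.39). In these labels 89.1% and 89.0% of all genes tested had a lower ratio. Without cells of high fragment count the levels were 177 and 215 FPM in Newly activated CD4 and 148 and 190 FPM in PD1+ CD8 cells. Their ratios within 1 kb of the start were 0.31 (-0.18 to 0.84) and 0.05 (-0.15 to 0.25). In the remaining labels the interval included 0. Both Treg subsets were close to even at -0.08 (-0.24 to 0.07) for IL-10+ and -0.07 (-0.22 to 0.08) for IL-10-, although within 1 kb of either gene end both stood at -0.32. For Nr4a1 that window leaves out the annotated start, which lies inside the gene span (chr15:101266846). Within 1 kb of the start the ratios were -0.12 (-0.35 to 0.10) for IL-10+ Treg and -0.09 (-0.31 to 0.14) for IL-10- Treg. No label was past 1.5-fold for Nr4a1 or Nr4a3 in the whole window. Within 1 kb of the start, Nr4a1 in CCR7+ CD4 cells had 71.3 FPM in cecum and 115 in the tumor (85 and 84 fragments), a log2 ratio of 0.69 (0.24 to 1.14), where 5.69% of starts were higher by 1.5-fold or more. In that start window Nr4a3 in Newly activated CD4 cells had 98.4 and 63.7 FPM (42 and 191 fragments), a log2 ratio of -0.63 (-1.12 to -0.11), where 4.46% of starts were lower by that much. Over all pairs of a gene and 1 of the 16 labels in the whole window, 3.28% were higher in the tumor by that much and 2.09% lower.

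The Nr4a1 locus showed open tiles shared by all labels and others that varied between them. At the start (chr15:101266501-101267000) the mean level was 82.7 FPM, and at -20.6 kb (chr15:101246001-101246500), outside any protein-coding gene, it was 55.8 FPM. Both varied little between labels, with SDs of 0.14 and 0.15 in log2(FPM + 5). The tile at -22.6 kb (chr15:101244001-101244500) had an SD of 0.90. There Cytotoxic gdT cells had 30.9 FPM in cecum and 24.8 in the tumor, Cytotoxic CD8 cells 26.6 and 19.97, CD8aa cells 24.6 and 27.2, and Innate-like T#1 cells 18.0 and 17.9. Tfh-like cells had no fragment in either library, with interval bounds of 1.73 and 6.58 FPM, and IL-10- Treg cells had 1.0 FPM in each. IL-10+ Treg cells had 4.4 and 2.9 FPM, from 25 and 8 fragments, against 3 and 6 fragments in IL-10- Treg. The highest level of a CD4 label there was 9.67 FPM, in Mucosal Th1 cells of the cecum, below the cytotoxic and unconventional labels just named. The tile was picked for its variation over labels, and its levels in the remaining CD8 and unconventional labels are not given here. It lies more than 5 kb outside the Nr4a1 gene span, so the Nr4a1 window does not count its fragments.

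A tile at -19.6 kb (chr15:101247001-101247500) had an SD of 0.54. Rorgt gdT cells led there with 30.1 FPM in cecum and 26.8 in the tumor, and CD8aa cells were lowest with 5.1 and 3.2 FPM, 11 fragments in each library. Another Nr4a1 tile, at -8.10 kb (chr15:101258501-101259000), inside the gene span, was highest in CCR7+ CD8 cells with 70.9 FPM in cecum and 55.2 in the tumor. CCR7+ CD4 cells, with 42.8 and 39.7 FPM, came next in the cecum, and Innate-like T#2 cells, with 44.8 FPM, in the tumor. IL-10+ Treg had 14.7 and 20.2 FPM there and IL-10- Treg 19.0 and 21.5. At the start tile CCR7+ CD8 cells had 97.6 and 93.5 FPM, the highest label in the cecum, and CCR7+ CD4 cells were highest in the tumor with 104 FPM, against a mean of 82.7 over labels.

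**Figure D4:**
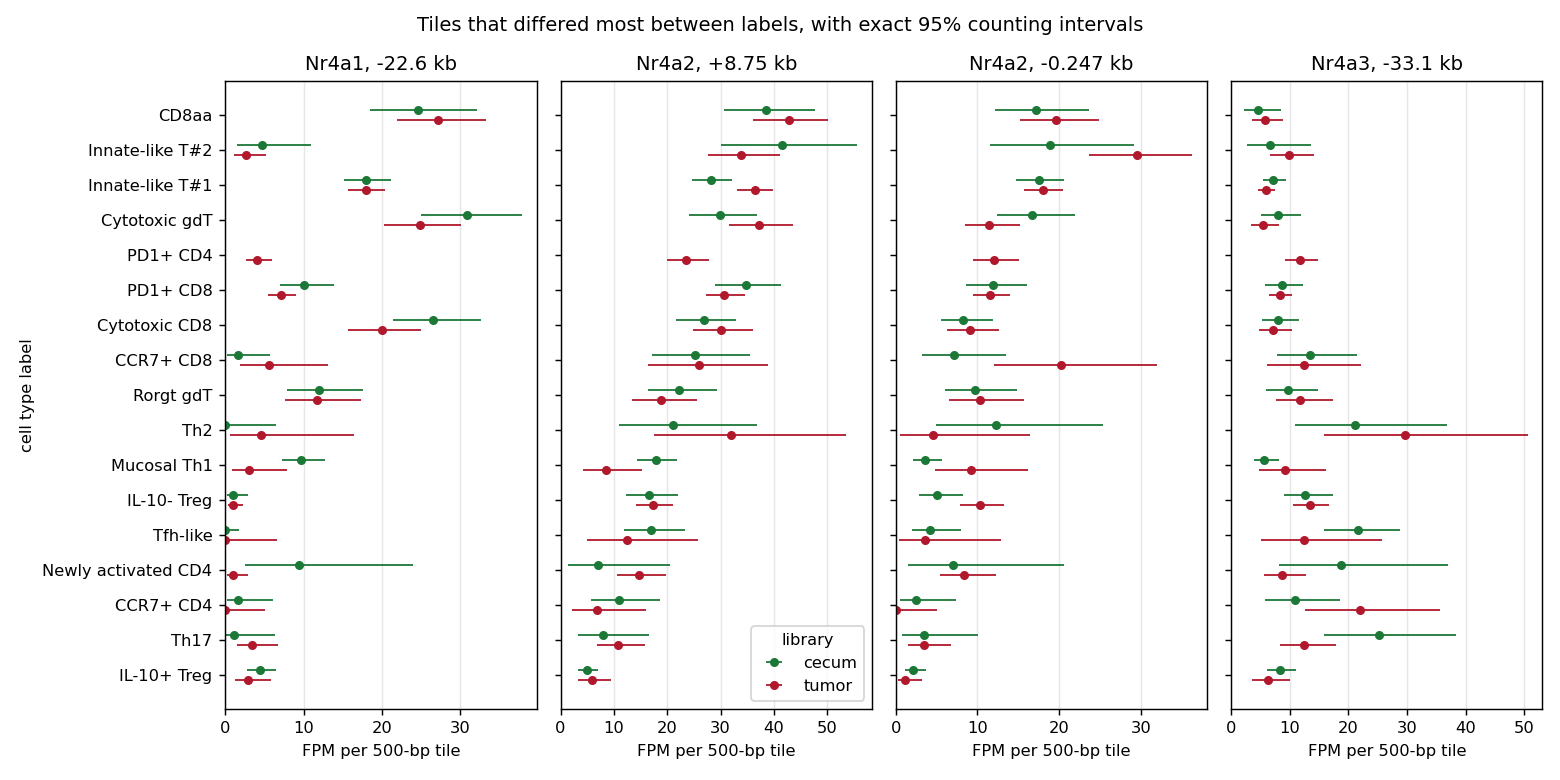
Levels (x axis, FPM per 500-bp tile) by label (y axis, ordered by the mean Nr4a2 level) in the cecum (green) and tumor (red) libraries for tiles that differed much between labels, headed by gene and distance from the annotated start, with bars for exact 95% counting intervals. The tile at -22.6 kb of Nr4a1 is highest in Cytotoxic gdT cells of the cecum (30.9 FPM) and CD8aa cells of the tumor (27.2 FPM), and the tiles of Nr4a2 are low in IL-10+ Treg in both libraries.

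In the Nr4a3 locus the most open tile was at -2.05 kb (chr4:48043001-48043500), with a mean of 93.5 FPM and an SD of 0.12 over labels, ahead of the start with 53.1 FPM. The neighbouring tile at -1.55 kb (chr4:48043501-48044000) was higher in IL-10+ Treg, with 31.2 FPM in cecum and 29.3 in the tumor against 19.99 and 18.8 FPM in IL-10- Treg. Its log2 ratio was 0.64 (0.21 to 1.09) in cecum and 0.64 (0.21 to 1.07) in the tumor. A distal tile at -33.1 kb (chr4:48012001-48012500) lay the other way, with 8.4 and 6.2 FPM in IL-10+ Treg against 12.7 and 13.4 FPM in IL-10- Treg, log2 ratios of -0.59 (-1.24 to 0.06) and -1.11 (-1.96 to -0.34). Both of these tiles were picked for extreme subset ratios in the locus, a choice that their intervals do not allow for. Of 22 tiles with at least 20 fragments over both subsets in each library, 9 were higher in IL-10+ Treg in both libraries and 5 lower in both. This count has no share over tiles elsewhere in the genome beside it, so it is not read as a result about the locus. At the distal tile Th17 cells had the most in the cecum, 25.3 FPM, and Th2 cells in the tumor, 29.6 FPM, with 21.1 FPM in cecum. The start tile was lower in the tumor in both subsets, at -0.43 (-0.74 to -0.13) for IL-10+ Treg and -0.43 (-0.74 to -0.12) for IL-10- Treg. At 1.95 kb (chr4:48047001-48047500) the direction was opposite, with 6.0 FPM in cecum and 13.9 FPM in the tumor in IL-10+ Treg, a log2 ratio of 1.23 (0.52 to 1.94). IL-10- Treg had 8.0 and 9.6 FPM there, a log2 ratio of 0.27 (-0.44 to 1.02). This tile was picked for an extreme tumor over cecum ratio in the Treg subsets, a choice that its intervals do not allow for.

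Genes linked to the members were counted in the same way, from lists chosen with earlier results known. Of 12 genes that TCR signalling induces early, 10 were higher in IL-10+ than in IL-10- Treg in each library, with median log2 ratios of 0.20 in cecum and 0.23 in the tumor against 0.011 and 0.0049 over all genes, of which 51.8% and 50.9% were higher. Egr2, Egr3, Cd69 and Nfkbid were higher by less than counting error in both libraries, and Irf4 in the cecum. Myc and Tnfrsf9 were lower, also by less than counting error. Past 1.5-fold were Spry1, an inhibitor of receptor signalling, at 0.70 in both libraries, and in the cecum Bhlhe40, a transcriptional repressor, at 0.64, where 2.53% of all genes in cecum and 2.06% in the tumor were higher by that much. Nr4a2 thus lay opposite to the median of this list. Of 7 dysfunction genes, 3 were higher in IL-10+ Treg in cecum and 5 in the tumor, and Tox, a factor of T cell exhaustion, was past 1.5-fold lower at -0.90 and -0.75. The medians of that list were -0.09 and 0.07. Within 1 kb of either gene end the TCR-induced list had 0 genes past 1.5-fold higher and 1 lower in cecum and 1 of each in the tumor, and the dysfunction list had none past it in either library. In that window 2.77% of genes were higher and 4.08% lower by 1.5-fold in cecum, and 2.09% and 5.56% in the tumor.

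Of 6 Treg genes, 2 were higher in IL-10+ Treg in each library, and Ikzf2, which encodes Helios, was past 1.5-fold lower at -1.21 and -0.89. The Treg list had medians of -0.24 and -0.09, and near the gene ends 1 gene past 1.5-fold lower in cecum and none in the tumor. Over all genes the shares lower by 1.5-fold were the 8.32% and 8.92% given above. Of the 3 retinoid X receptor genes, whose proteins pair with Nr4a1 and Nr4a2, 2 had enough fragments and 2 of these were higher in IL-10+ Treg in each library, with medians of 0.22 and 0.15. Between tumor and cecum none of these lists had a gene with enough fragments past 1.5-fold in either Treg subset, where the share of all genes was 2.89% higher and 1.1% lower for IL-10+ Treg and 3.99% higher and 1.21% lower for IL-10- Treg. The TCR-induced list had medians of -0.01 for IL-10+ Treg and 0.01 for IL-10- Treg, the dysfunction list 0.01 and -0.23, the Treg list 0.03 and -0.13, and the retinoid X receptors -0.01 and 0.06.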

How the data were processed

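ATAC libraries of sorted T cells, 1 from cecum and 1 from tumor, were analysed. RNA counts and the other assays of the study were not used here, and the genotype of the tumor model is not reported here. The deposited fragment files came from Cell Ranger ARC 2.0.0 and mm10, as their headers state. A deposited line holds 1 unique fragment and the raw count of its read pairs, with ends shifted for the transposase cut. The authors filtered nuclei by RNA and ATAC quality, clustered them by RNA, and deposited each cell's label and library. The sources used here do not say whether doublets were removed, and none were called.

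Fragments of labelled cells on the autosomes, X and Y were counted once in a window that held either end, were summed per label and library, and scaled per 1000000 fragments (FPM). Read pairs per fragment were 4.29 (cecum) and 3.11 (tumor). Gene positions, promoters and starts came from RefSeq tables of GRCm38.p6. Windows were the gene span plus 5 kb on each side and 500-bp tiles within 50 kb. Levels have exact Poisson intervals and log2 ratios exact conditional intervals at 95%, with a floor of 3 counts for a count of 0. A gene was called past 1.5-fold among genes with at least 50 fragments over both sides. A comparison of labels used those with at least 50 cells.

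The members and lists were chosen with earlier results of these data known. The rule named the members, list genes on which a count turned, the 3 genes most like each member among those with a mean of at least 20 FPM, and per locus the tiles that were highest, most different between subsets (at least 20 fragments) or tissues, or most variable over labels (at least 200 fragments, by the SD of log2(FPM + 5)). Some of these are not reported. Alternatives were other windows (the span alone, 1 kb around either gene end, 50 kb each side), scaling by fragments near gene ends, a minimum of 1000 fragments per cell, removal of cells above 3 times the median, fragments under 150 bp, the mean over cells, tiles shifted by 250 bp, a 1.2-fold call, and no minimum or one of 200 fragments. The window within 1 kb of the annotated start was added after seeing the data. Counting and ratios were tested on simulated data. The tools were scipy 1.17.1, numpy 2.4.6, numba 0.67.0, matplotlib 3.10.9 and pandas 2.3.3 under Python 3.11.15.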

Additional observations from a re-analysis of the deposited data

Results flagged for a closer look

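For each member the log2 ratio of tumor over cecum had both signs over the labels, but its interval excluded 0 on 1 side only, above 0 in 2 labels for Nr4a1 and 3 for Nr4a2 and below 0 in 5 for Nr4a3. With 1 library per tissue the differences between labels were not tested. For Nr4a1 it ran from -0.28 (-0.63 to 0.05) in Tfh-like cells to 0.48 (0.11 to 0.87) in Newly activated CD4 cells. For Nr4a2 it ran from -0.43 (-0.98 to 0.09) in Tfh-like cells to 0.60 (0.05 to 1.17) in Th2 cells. For Nr4a3 it ran from -0.41 (-0.66 to -0.16) in CCR7+ CD4 cells to 0.10 (-0.01 to 0.22) in PD1+ CD8 cells.

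In the tile across the Nr4a2 start the ratios of the Treg subsets had opposite signs, with overlapping intervals, at -0.93 (-3.40 to 0.96, 12 and 3 fragments) in IL-10+ Treg and 1.05 (0.21 to 1.97, 15 and 60 fragments) in IL-10- Treg. In the Nr4a1 tile at -22.6 kb the ratios were -0.58 (-1.94 to 0.62) in IL-10+ Treg and 0.048 (-2.18 to 2.68) in IL-10- Treg. Neither difference between the subsets was tested.

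Fragments from barcodes without a label, which enter none of the comparisons, also lay at the members. Their levels were 140.1 FPM in cecum and 141 in the tumor for Nr4a1, 88.9 and 117 for Nr4a2, and 228 and 217 for Nr4a3. In the labelled cells pooled, Nr4a1 had 173 and 171 FPM, Nr4a2 114 and 133, and Nr4a3 299.7 and 273.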

How the results depend on the processing

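No paired analysis was possible because each tissue gave 1 library. Of 135 ratios of the members recomputed for the Treg subsets and all labels pooled, 114 stayed within the counting interval of the main value and none changed direction with an interval that excluded 0. Of 648 other values, over the remaining labels, tiles, counts and lists, 92 moved past their interval, by over 1.5 times for a count or a range, or by 0.1 or more for a list median, and 2 whose main interval excluded 0 changed direction, both for Nr4a2 in Th2 cells. The cause was not tested for those that moved. Nr4a2, IL-10+ over IL-10- Treg in the cecum, went from -1.44 to -1.98 without high-count cells, -2.01 as a mean over cells, -1.07 with fragments under 150 bp, -0.86 within 1 kb of either gene end and -0.79 at the annotated start. Nr4a2, tumor over cecum in IL-10- Treg, went from 0.36 to 1.26 at the gene ends, 1.34 at the start and 0.042 as a mean over cells. In Th2 cells it turned from 0.60 to -0.26 at the gene ends and -0.28 at the start. Nr4a1 at the gene ends, a window without its annotated start, was -0.32 for tumor over cecum in both Treg subsets. At the start it was -0.12 for IL-10+ Treg and -0.09 for IL-10- Treg, and its subset ratio in the cecum was 0.13.

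Over all labels pooled, tumor over cecum at gene ends, at the start and scaled by fragments near gene ends was -0.10, -0.11 and 0.039 for Nr4a1, 0.39, 0.43 and 0.28 for Nr4a2, and -0.20, -0.20 and -0.079 for Nr4a3, which was -0.18 with fragments under 150 bp. Labels higher in the tumor numbered 7 for Nr4a1 and 11 when scaled by fragments near gene ends. For Nr4a3 they numbered 1, 3 at the gene ends, and 2 at the start, with 50 kb each side or with that scaling. Genes lower by 1.5-fold in IL-10+ Treg numbered 1210 in cecum and 1320 in the tumor, 2797 and 2959 at 1.2-fold, 2168 and 2375 with no minimum, and 349 and 452 with at least 200 fragments. Genes higher in tumor IL-10- Treg numbered 595, and 2083, 1431 and 159 under these.

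Depth limits the tiles, where many levels rest on under 20 fragments. Differences between animals cannot be seen with 1 library per tissue.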
